A study of Mus musculus with 2 samples.

Results

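The receptor Lifr, its co-receptors, the kinases and transcription factors they activate, and 2 inhibitors of that signal were examined in single cells of the fibrotic mouse liver. The members were chosen by name, as 10 of the 31054 genes counted: the receptor subunits Lifr, Il6st and Osmr, the kinases Jak1 and Jak2, the transcription factors Stat3, Stat5a and Stat5b, and the suppressors Socs2 and Socs3. Cells came from a stellate cell isolation, by enzyme digestion and a Nycodenz gradient, after 4 weeks of carbon tetrachloride (CCl4), a toxin that injures hepatocytes and causes fibrosis. The study asked what changes in these cells once hepatocytes that strongly express the senescence gene p16 are removed. There were 2 libraries from male mice, 1 per genotype. Both genotypes carried p16-CreERT2, a tamoxifen-dependent recombinase driven by the p16 gene, together with the reporter allele named R26-CAG-LSL-RSR-tdTomato-2A-DTR, which encodes the diphtheria toxin receptor. The p16-Alb-LRTD mice also carried Alb-DreERT2, a recombinase under the albumin promoter of hepatocytes, and the p16-LRTD mice lacked it. Both received CCl4, tamoxifen and diphtheria toxin, so the genotypes differed in the Dre allele and in the elimination of p16-high hepatocytes. The paper also saw very mild fibrosis away from the central veins (zones 1 and 2) only where Alb-DreERT2 and the reporter allele were combined. It speculates that the toxin receptor was expressed through leakage. The part of this in the values below was not tested. The age of the mice and the number pooled per library are not given in the sources used here. Without replicates no test was possible, and every interval below is a 95% interval for counting error only.

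LIFR pairs with the shared subunit gp130, encoded by Il6st, to bind ligands such as leukemia inhibitory factor and cardiotrophin-1, and OSMR pairs with gp130 to bind oncostatin M. The bound receptors bring together JAK kinases, which phosphorylate STAT3 and, in some settings, STAT5. Phosphorylated STATs enter the nucleus and induce Socs3, whose product binds gp130 and JAKs and damps the signal, while SOCS2 is best known as a brake on growth hormone signaling through STAT5. RNA counts do not show phosphorylation, so what follows is the supply of these components.

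The libraries held 193746596 and 162219167 UMIs (distinct RNA molecules), and 9004 p16-LRTD and 7416 p16-Alb-LRTD cells passed the filters. Cells were assigned by summed UMIs of a few genes per 10000 UMIs of the cell. The stellate gate (Lrat, Ecm1, Hgf and Reln) held 7852 and 6621 cells, the endothelial gate (Kdr, Stab2 and Ptprb) 430 and 283, and the Kupffer gate (Clec4f, Cd5l, Vsig4 and Csf1r) 283 and 178. A further 245 and 221 cells met more than 1 gate and were left out. The gates were checked with 6 further markers of each class. Their summed level was 26301 and 28809 CPM (UMIs of a gene per 1000000 UMIs summed over the cells of a class) for the stellate list in stellate cells and at most 528 CPM elsewhere, 6148 and 4933 CPM for the endothelial list in endothelial cells and at most 665 CPM elsewhere, and 10945 and 13783 CPM for the Kupffer list in Kupffer cells and at most 79.3 CPM elsewhere. The stellate markers Dcn and Rgs5, which Kupffer cells should lack, were found there at 1.0% to 2.09% of their stellate level, taken here as the background of that class. The endothelial gate of p16-LRTD held 4 cells with at least 10 Col1a1 UMIs, and its 5 highest cells carried 92.8% of that gate's Col1a1. The libraries shared 95 barcodes, 18 of them among kept cells.

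**Figure D1:**
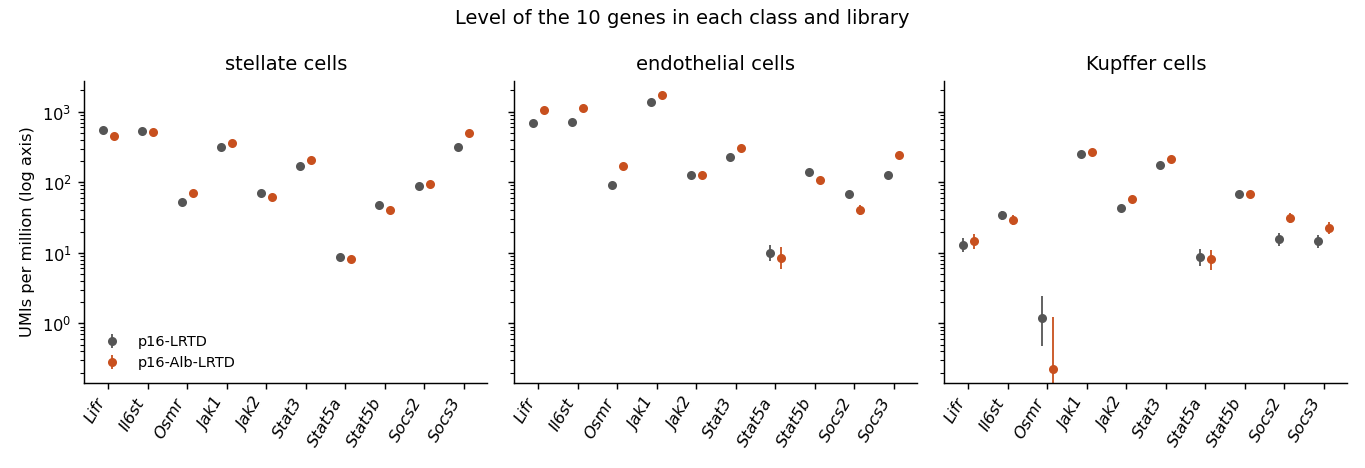
Level of each of the 10 genes, as CPM on a log axis, in stellate, endothelial and Kupffer cells of p16-LRTD (grey) and p16-Alb-LRTD (orange); bars are 95% counting intervals. Lifr and Il6st stand above 450 in stellate and endothelial cells and under 35 in Kupffer cells, Stat3 is highest in endothelial cells, and Stat5a is close to level across the classes.

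Among the receptor subunits, Lifr (chr15:7090614-7197489, plus strand, GRCm38) was a gene of stellate and endothelial cells. Values are given for p16-LRTD first. In stellate cells Lifr stood at 556 CPM (552 to 559) in p16-LRTD against 455 CPM (452 to 459) in the p16-Alb-LRTD library. In endothelial cells the values were 688 (667 to 709) and 1058 CPM (1026 to 1090). The order of the classes was the same in both libraries, endothelial above stellate above Kupffer, but the endothelial lead over stellate cells was 1.24-fold in p16-LRTD and 2.32-fold in p16-Alb-LRTD. In Kupffer cells Lifr reached 13.0 and 14.8 CPM, which is 2.33% and 3.24% of the stellate level and little above the share of Dcn and Rgs5 there. After each cell was thinned to 5000 UMIs, 86.9% and 81.8% of stellate cells and 92.3% and 94.3% of endothelial cells held a Lifr UMI, against 4.68% and 6.78% of Kupffer cells. Thinning left out 16 and 7 stellate cells, 12 and 0 endothelial cells, and 5 and 1 Kupffer cells. Without thinning, 99.0% and 98.1% of stellate cells (median depth 17024.5 and 18136 UMIs) and 19.8% and 23.0% of Kupffer cells (19514 and 25101.5 UMIs) held one.

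The difference in Lifr between the libraries thus ran in opposite directions in the 2 classes that express it. In stellate cells the p16-Alb-LRTD library was lower, with a log2 ratio of p16-Alb-LRTD over p16-LRTD of -0.29 (-0.30 to -0.27), and in endothelial cells it was higher, at 0.62 (0.56 to 0.68). Across all genes with at least 5 CPM the middle 90% of log2 ratios ran from -0.47 to 0.42 in stellate cells and from -0.89 to 0.68 in endothelial cells. Of stellate cells thinned to equal depth, 22.8% and 12.6% held 5 or more Lifr UMIs. The difference in Kupffer cells, 0.19 (-0.31 to 0.68), was not detectable at this depth. Some markers of other cells also differed between the stellate cells of the libraries. The smooth muscle gene Myh11 was at 150.4 and 73.8 CPM, the fibroblast gene Dpt at 60.4 and 29.7 CPM and the endothelial gene Clec4g at 28.5 and 15 CPM. Others of the same lists were within 1.5-fold, Wt1 at 43.7 and 43.5 CPM and Egfl7 at 41.0 and 31.7 CPM. The remaining genes of these lists were under 5 CPM. The stellate marker Pdgfrb was at 376 and 231 CPM, while the other 5 stellate markers, Dcn among them at 18430 and 22185 CPM, were within 1.5-fold. Without cells holding portal fibroblast or mesothelial markers, Lifr was at -0.40. The part of the other marker differences in the Lifr value was not tested.

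Il6st (chr13:112464070-112510086, plus strand), the gp130 subunit that all these receptors share, followed Lifr across the classes but not between the stellate libraries. Stellate cells held 526 and 511 CPM, a log2 ratio of -0.04 (-0.06 to -0.03) that became 0.01 under both other scalings of the libraries. Its endothelial level was 721 and 1126 CPM, a ratio of 0.64 (0.58 to 0.70). In Kupffer cells it was at 34.1 and 29.3 CPM, 6.50% and 5.73% of the stellate level. Il6st was therefore at nearly the same level in the stellate cells of both libraries and higher in endothelial cells of p16-Alb-LRTD.

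Osmr (chr15:6813577-6874969, minus strand), the subunit for oncostatin M, was higher in p16-Alb-LRTD in both classes that express it. Stellate cells held 52.3 CPM (51.1 to 53.5) and 69.8 CPM (68.4 to 71.3), a log2 ratio of 0.42 (0.37 to 0.46). Endothelial cells held 92.6 CPM (85.2 to 101) and 168 CPM (155 to 181), a ratio of 0.86 (0.69 to 1.02). Lifr and Osmr therefore moved apart between the stellate libraries and together between the endothelial ones. Kupffer cells carried 7 Osmr UMIs in all and 1 Osmr UMI, under the minimum of 5 CPM.

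Receptor subunits act in pairs, so cells with UMIs of both were counted at 5000 UMIs. Lifr and Il6st were found together in 78.5% (77.6 to 79.4) of the stellate cells of p16-LRTD and 73.7% (72.7 to 74.8) of the other library. In endothelial cells the shares were 85.2% (81.4 to 88.4) and 93.6% (90.1 to 96.2). Osmr and Il6st were found together in 17.7% and 23.2% of stellate cells and in 32.1% and 46.6% of endothelial cells. The Lifr pair was thus less frequent, and the Osmr pair more frequent, in stellate cells of the p16-Alb-LRTD library. These shares follow those of the single genes in stellate cells: Lifr in 86.9% and 81.8%, Osmr in 20.1% and 25.7%, and Il6st in 89.7% of both. Whether the pairs occurred beyond the single-gene shares was not tested. In Kupffer cells, 0 of 278 and 1 of 177 held Lifr with Il6st, and 0 of 278 and 0 of 177 held Osmr with Il6st, where a count of 0, read as at most 3 cells, allows shares of cells with UMIs of both of up to 1.08% and 1.69% at this depth. The upper ends of the two-sided intervals were 1.32% and 2.06%.

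Of the kinases, Jak1 (chr4:101152367-101265282, minus strand), which docks on gp130, was found in every class. Stellate cells held 313 and 356 CPM, endothelial cells 1350.1 and 1736 CPM and Kupffer cells 248 and 267 CPM. The endothelial level was 4.32 times the stellate level in p16-LRTD and 4.87 times in p16-Alb-LRTD, the largest such lead among the 10 members. The log2 ratios between the libraries were 0.19 (0.17 to 0.21) in stellate, 0.36 (0.32 to 0.41) in endothelial and 0.11 (-0.0014 to 0.22) in Kupffer cells. All were under 1.5-fold, and the stellate one turned to -0.014 when both libraries were given equal shares of cells by Col1a1 and by a sum of stress genes. The annotation places Jak1 over Raver2 and Gm24468 on the other strand and Gm12785 on its own. How reads in the overlaps were assigned is not given in the sources used here.

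Jak2 (chr19:29251828-29313080, plus strand), which also serves the growth hormone and interferon-gamma receptors, did not follow Jak1. It stood at 70.9 and 61.3 CPM in stellate cells, 129 and 125 CPM in endothelial cells, and 42.7 and 57.2 CPM in Kupffer cells. The log2 ratio was -0.21 (-0.25 to -0.17) in stellate cells, 0.42 (0.17 to 0.68) in Kupffer cells, where it was 1.0 among the 107 and 74 cells with under 2 UMIs per 10000 of other gates, and -0.04 (-0.20 to 0.13) in endothelial cells, where it turned positive under both other scalings. In p16-Alb-LRTD the stellate and Kupffer levels of Jak2 lay within each other's counting error.

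The transcription factor Stat3 (chr11:100885098-100939540, minus strand), the main STAT of gp130, was found in every class and was highest in endothelial cells. Stellate cells held 171 and 209 CPM, Kupffer cells 174 and 214 CPM, and endothelial cells 225 and 303 CPM. The stellate and Kupffer levels did not differ beyond counting error in either library, and the endothelial level was above both. The log2 ratios were 0.29 (0.27 to 0.32), 0.30 (0.17 to 0.43) and 0.43 (0.31 to 0.54) in stellate, Kupffer and endothelial cells. Stat3 RNA was thus higher in p16-Alb-LRTD in each class, by less than 1.5-fold, although the endothelial ratio was 0.14 with equal shares of cells by the stress sum.

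The pair of STAT5 genes went the other way or did not differ. Stat5b (chr11:100780731-100850724, minus strand) stood at 47.8 and 41.0 CPM in stellate cells, 138 and 108 CPM in endothelial cells, and 69.1 and 67.1 CPM in Kupffer cells. Its log2 ratio was -0.22 (-0.27 to -0.17) in stellate and -0.35 (-0.52 to -0.18) in endothelial cells, and in Kupffer cells -0.04 (-0.26 to 0.17). Stat5a (chr11:100859351-100885169, plus strand) was at 8.05 to 10.1 CPM in every class and library, with ratios from -0.24 to -0.10 whose intervals all included 0, and its levels in the 3 classes did not differ beyond counting error. Stat3 and Stat5a overlap at their ends on opposite strands, and whether strand was used in counting is not given in the sources used here.

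Socs3 (chr11:117966079-117970047, minus strand), the inhibitor that gp130 signaling itself induces, was the only member past 1.5-fold in stellate cells. Its level was 314 CPM (311 to 317) against 501 CPM (497 to 505), for a log2 ratio of 0.67 (0.66 to 0.69). Genes of a dissociation stress list were higher in the same cells of p16-Alb-LRTD, and with equal shares of cells by their sum the Socs3 ratio was 0.21, under 1.5-fold. Of 10179 genes at the minimum level in stellate cells, 3.03% were higher and 3.05% lower by 1.5-fold or more, against 1 and 0 of the 10 members. In endothelial cells Socs3 was at 125 CPM (116 to 134) and 246 CPM (231 to 262), a ratio of 0.98 (0.84 to 1.12). In Kupffer cells it was at 14.6 CPM (11.7 to 18.1) and 22.4 CPM (18.2 to 27.2), 4.66% and 4.46% of the stellate level, and the ratio of 0.61 (0.18 to 1.04) turned to -0.034 when cells in more than 1 gate were kept. Stellate cells therefore held the highest Socs3 level of the classes in both libraries, 2.52 and 2.04 times the endothelial one. At 5000 UMIs, 23.1% and 41.0% of stellate cells held 3 or more Socs3 UMIs. The share of stellate cells with any Socs3 UMI was 65.0% and 77.2%, against 9.35% and 9.04% of Kupffer cells.

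Socs2 (chr10:95385362-95417180, minus strand) did not follow Socs3. Stellate cells held 89.6 CPM (88.1 to 91.2) and 93.7 CPM (92.1 to 95.5), a log2 ratio of 0.06 (0.03 to 0.10). Endothelial cells held 67.3 CPM (60.9 to 74.1) and 40.9 CPM (34.9 to 47.7), a ratio of -0.72 (-0.99 to -0.45), and Kupffer cells 15.6 CPM (12.6 to 19.2) and 31.3 CPM (26.3 to 36.9), a ratio of 1.0 (0.61 to 1.39). Socs2 was thus near level in stellate cells, lower in endothelial cells and higher in Kupffer cells of the p16-Alb-LRTD library. This Kupffer value rests on 93 and 140 UMIs, and the ratio was 0.37 when cells in more than 1 gate were kept. At 5000 UMIs the shares of Kupffer cells with a Socs2 UMI were 8.27% (5.32 to 12.2) and 9.04% (5.26 to 14.3).

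In endothelial cells, 4 members were higher by 1.5-fold or more (Lifr, Il6st, Osmr and Socs3) and 1 lower (Socs2), beside 6.44% of 9858 genes higher and 13.5% lower. The median log2 ratio was 0.39 over the members and -0.10 over all genes, and median-of-ratios scaling would raise every endothelial ratio by 0.10. The 5 calls were also made without the 4 collagen-rich cells. When cells in more than 1 gate were kept, Osmr and Socs3 were past 1.5-fold, and Lifr stood at 0.34, Il6st at 0.45 and Socs2 at -0.30. As the mean of per-cell CPM, Lifr was at 0.56, just under 1.5-fold. The endothelial cells of the libraries also differed in other genes: Lyve1, a marker of sinusoidal endothelium, was at 1111 and 669 CPM, Egfl7 at 1524 and 797 CPM, and Pecam1 at 619 and 660 CPM. The other 3 of the 6 markers were closer, with Clec4g at 1225 and 1268 CPM, Oit3 at 689 and 621 CPM and Cdh5 at 978 and 919 CPM. The part of the differences in Lyve1 and Egfl7 in the receptor values was not tested. In Kupffer cells 2 members (Socs2 and Socs3) were higher and 0 lower, beside 5.21% of 9514 genes higher and 6.83% lower, and Osmr was under the minimum. With the lower or the higher gates 1 member passed. When cells in more than 1 gate were kept, the members past 1.5-fold were instead Lifr at -0.85 and Il6st at -0.72, both lower. The Kupffer cells of the libraries differed in other genes as well: Marco, a scavenger receptor, was at 508 and 1461 CPM, Timd4, a marker of resident Kupffer cells, at 195 and 297 CPM, Pecam1 at 62.7 and 125 CPM and Lyve1 at 22.7 and 5.81 CPM. The other 4 Kupffer markers (Adgre1, C1qa, C1qb and C1qc) were within 1.5-fold. The part of this shift in the Kupffer values of Socs2, Socs3, Lepr and Il6 was not tested.

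**Figure D2:**
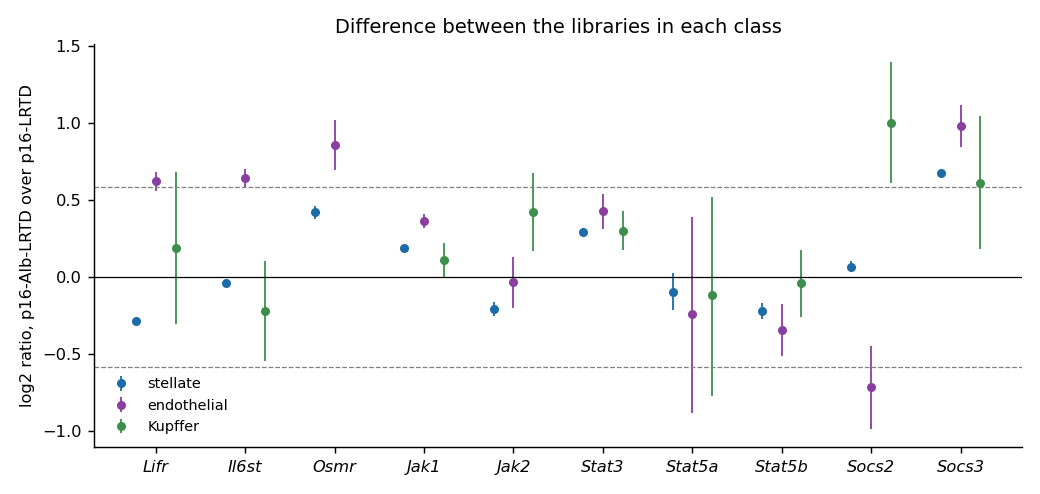
Log2 ratio of p16-Alb-LRTD over p16-LRTD for each gene in stellate (blue), endothelial (purple) and Kupffer cells (green), with 95% counting intervals and dashed lines at 1.5-fold; Osmr in Kupffer cells was under 5 CPM and is left out. Lifr lies below 0 in stellate and above 0 in endothelial cells, Osmr and Socs3 lie above 0 in each class plotted, and Socs2 spreads from -0.72 to 1.0.

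The rest of the pathway was read from lists. None of 11 ligands of the IL-6 family, among them Il6, Il11, Lif, Osm and Ctf1, reached 5 CPM in stellate or endothelial cells. In stellate cells Ctf1, which encodes cardiotrophin-1, was at 2.60 and 2.25 CPM, Lif at 1.65 and 1.3 CPM, and Il11 at 1.61 and 1.10 CPM. Kupffer cells held 4 ligands at the minimum: Il6 at 9.08 and 21.7 CPM, Clcf1 at 5.05 and 9.61 CPM, Il27 at 8.75 and 13.0 CPM, and Ebi3, which pairs with Il27, at 40.5 and 49.9 CPM. Osm was at 4.21 and 0.894 CPM there, and Lif at 0, which allows up to 0.505 and 0.671 CPM if read as at most 3 UMIs, with two-sided intervals that end at 0.62 and 0.825 CPM. Hepatocytes were not isolated for these libraries.

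Of 5 other receptors of the family, Il11ra1, for interleukin-11, was at 193 and 199 CPM in stellate cells, 54.3 and 41.9 CPM in endothelial cells, and 47.9 and 36.9 CPM in Kupffer cells. Il6ra, for interleukin-6, was at 164 and 226 CPM in Kupffer cells but at 6.41 and 9.15 CPM in stellate and 3.41 and 4.52 CPM in endothelial cells. Cntfr was at 29.4 and 41.4 CPM in endothelial cells, 3.08 and 5.39 CPM in stellate cells and 0 in Kupffer cells, with the same limits. Il27ra was at 6.42 and 5.98 CPM in stellate and 12 and 15.1 CPM in endothelial cells, and Il31ra was at or under 1.30 CPM throughout. None of those at the minimum differed by 1.5-fold.

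Among 18 other JAK-coupled receptors, 1 of 11 at the minimum in stellate cells was past 1.5-fold, Il4ra for interleukin-4, at 47.6 and 74.2 CPM. Il4ra was also higher in endothelial cells, at 51.7 and 84.6 CPM, where Il2rg was lower. In Kupffer cells the leptin receptor Lepr was at 12.1 and 92.3 CPM and Il2rg at 39.0 and 63.3 CPM, both higher in p16-Alb-LRTD, and Il7r was lower. Of the other JAKs and STATs, Stat2, which carries interferon signals, was higher in stellate cells, at 48.2 and 82.9 CPM. It was also past 1.5-fold in Kupffer cells, at 65.9 and 140 CPM, and in endothelial cells, at 48.9 and 80.8 CPM. Of 15 other inhibitors, Socs1 was the only gene past 1.5-fold among those with at least 5 CPM on average in a class. It was at 11.5 and 17.7 CPM in stellate, 29.2 and 56.5 CPM in endothelial, and 2.52 and 8.49 CPM in Kupffer cells. The growth hormone feedback gene Cish was at 2.20 and 2.70 CPM in stellate cells.

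Genes known to be induced by STAT3 did not move as a block in stellate cells. Of 11 at the minimum, 5 were higher by 1.5-fold or more: Cebpd at 479 and 1086 CPM, Cebpb at 340 and 669 CPM, Pim1 at 52.8 and 106 CPM, Pim3 at 25.4 and 58.5 CPM, and Junb at 930 and 1567 CPM. Timp1, an inhibitor of matrix-degrading enzymes, was lower at 55.5 and 19.4 CPM, as was the acute-phase gene Saa3 at 19.4 and 4.44 CPM. Several of the higher genes are also induced by other stimuli, Cebpb, Cebpd and Junb among them. The median of the list was 0.27, beside -0.05 over all genes. In endothelial cells, Cebpd and Junb were higher and Myc, Steap4 and Saa3 lower, of 10 at the minimum. In Kupffer cells Bcl3 and Saa3 were higher and none lower, so that Saa3 was lower in p16-Alb-LRTD in the first 2 classes and higher in Kupffer cells. Of STAT5 targets, Pim1, Bcl2l1 and Bcl6 were higher and Igf1 lower in stellate cells. Ccnd1 was lower in endothelial cells, from 1024 to 395 CPM, and Bcl2l1 higher in Kupffer cells. The summed level of 3 markers of dividing cells (Mki67, Top2a and Cdk1) was also lower in p16-Alb-LRTD, at 69.9 and 22.2 CPM in stellate, 54.1 and 12.1 CPM in endothelial, and 49.6 and 30.2 CPM in Kupffer cells. Its part in the value of Ccnd1, a cyclin of the cell cycle, was not tested.

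A shared STAT element was looked for in the promoters of the members, because Socs3 was the member that differed most between stellate libraries. RefSeq promoters (GRCm38.p6) were matched for 9 members, with 12 start sites in all, Socs2 not among them. The motif TTCNNNGAA, which reads the same on both strands, was searched in the 250 bases before each start. It was present in 7.02% of 32851 promoters and in 1 of the 12, that of Socs3. The AP-1 motif TGANTCA, also the same on both strands, was in 6.75% of all promoters and in 0 of the 12. The stretch around the Socs3 match is shown on the minus strand, chr11:117969502-117969530, with the motif in capitals, beginning 154 bases before the RefSeq start. It lies 316 bases before the start of 1 annotated Socs3 transcript, 51 bases before that of another and in an intron of the third. A match is a description of letters and not of binding.
Socs3: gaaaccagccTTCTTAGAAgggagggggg

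Col1a1, the main chain of fibrillar collagen, was used to ask whether the pathway goes with collagen RNA from cell to cell. Stellate cells were divided by their Col1a1 UMIs after thinning to 5000, into 0, 1 to 2, 3 to 9 and 10 or more. These strata held 2437, 1838, 1675 and 1886 cells of p16-LRTD and 2612, 2216, 1403 and 383 cells of p16-Alb-LRTD. The highest stratum was thus 24.1% of the first and 5.79% of the second library. Near the limits, 1067 and 1305 cells had 2 or 3 Col1a1 UMIs, and 266 and 128 had 9 or 10.

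Lifr was lower the more Col1a1 a cell held, in both libraries. From the stratum without Col1a1 to the highest one it stood at 825, 679, 429 and 311 CPM in p16-LRTD, and at 559, 449, 324 and 282 CPM in p16-Alb-LRTD. The highest stratum was thus 2.65-fold lower than the stratum without Col1a1 in p16-LRTD and 1.98-fold lower in p16-Alb-LRTD. Below 10 Col1a1 UMIs the libraries differed more in Lifr than over all stellate cells, and at 10 or more they differed less. The log2 ratio of p16-Alb-LRTD over p16-LRTD was -0.56 (-0.58 to -0.54) without Col1a1, -0.60 (-0.63 to -0.57) at 1 to 2, -0.41 (-0.45 to -0.37) at 3 to 9 and -0.14 (-0.21 to -0.08) at 10 or more. With both libraries given the same shares of the 4 strata the Lifr ratio was -0.50, against -0.29 over all stellate cells. The p16-LRTD library had more of the collagen-rich cells, which held less Lifr, and its collagen-poor cells held more Lifr than those of p16-Alb-LRTD.

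Il6st and Jak1 also declined with Col1a1. Il6st went from 651 to 411 CPM in p16-LRTD and from 561 to 371 CPM in p16-Alb-LRTD between the lowest and highest strata, and Jak1 from 353 to 247 CPM and from 387 to 265 CPM. Within strata Il6st was lower in p16-Alb-LRTD, with ratios from -0.21 to -0.06, although it was near level overall. Jak2 went from 78.7 to 57.7 CPM and from 66.0 to 50.5 CPM.

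Osmr and Socs2 ran the other way. Osmr stood at 43.0, 45.3, 47.2 and 70.3 CPM in p16-LRTD and at 62.5, 66.4, 77.9 and 108 CPM in p16-Alb-LRTD, from the lowest to the highest stratum. The ratio between the libraries was 0.54, 0.55, 0.72 and 0.62, so Osmr was higher in p16-Alb-LRTD in each stratum, and at equal strata the ratio was 0.60, past 1.5-fold. Socs2 stood at 69.2, 70.6, 89.5 and 123 CPM in p16-LRTD and at 80.1, 90.4, 111 and 140 CPM in p16-Alb-LRTD, with ratios of 0.21, 0.36, 0.31 and 0.18. Cells rich in Col1a1 therefore held less of the LIF receptor and more of the oncostatin M receptor per UMI in both libraries. Socs3 did not follow Col1a1 in a common direction, with 296, 314, 351 and 301 CPM in p16-LRTD and 511, 517, 487 and 409 CPM in p16-Alb-LRTD. Stat3 stayed between 157 and 186 CPM in p16-LRTD and between 207 and 219 CPM in p16-Alb-LRTD. The highest stratum was not matched in Col1a1 itself, at 5671 and 3284 CPM. Median depth went from 14969 to 20521.5 UMIs across the strata in p16-LRTD and stayed between 18096 and 18566 UMIs in p16-Alb-LRTD.

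**Figure D3:**
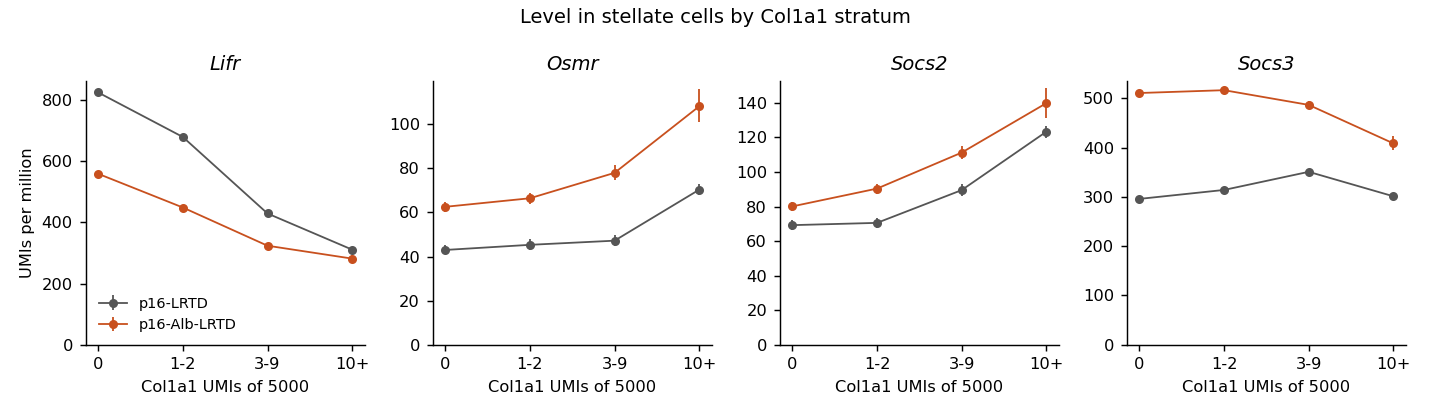
Level (CPM) of Lifr, Osmr, Socs2 and Socs3 in stellate cells grouped by Col1a1 UMIs after thinning to 5000 UMIs, in p16-LRTD (grey) and p16-Alb-LRTD (orange), with 95% counting intervals. Lifr declines from left to right in both libraries and the libraries come close at the right, Osmr and Socs2 climb, and Socs3 of p16-Alb-LRTD lies above that of p16-LRTD in every group.

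The correlation over cells is a description, since cells of 1 library share their preparation. Pearson r of Lifr with Col1a1, on log values after thinning, was -0.42 over 7836 cells of p16-LRTD and -0.23 over 6614 cells of p16-Alb-LRTD, and Spearman rho was -0.44 and -0.24. Among 3347 genes with at least 50 CPM, the lowest 5% had r under -0.21 and -0.12. Il6st lay at -0.25 and -0.16, and Jak1 at -0.15 and -0.10. Lifr and Il6st were thus within the lowest 5% of genes in both libraries. Socs2 was the most positive member, at 0.15 and 0.11, where the highest 5% of genes began at 0.17 and 0.095, so it was among them in p16-Alb-LRTD. Osmr was at 0.087 and 0.055, and Jak2, Stat3, Stat5a, Stat5b and Socs3 lay between -0.062 and 0.039. Depth before thinning also moved with these genes in p16-LRTD: r with log depth was 0.36 for Col1a1 and -0.20 for Lifr there, and 0.020 and 0.069 in p16-Alb-LRTD.

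**Figure D4:**
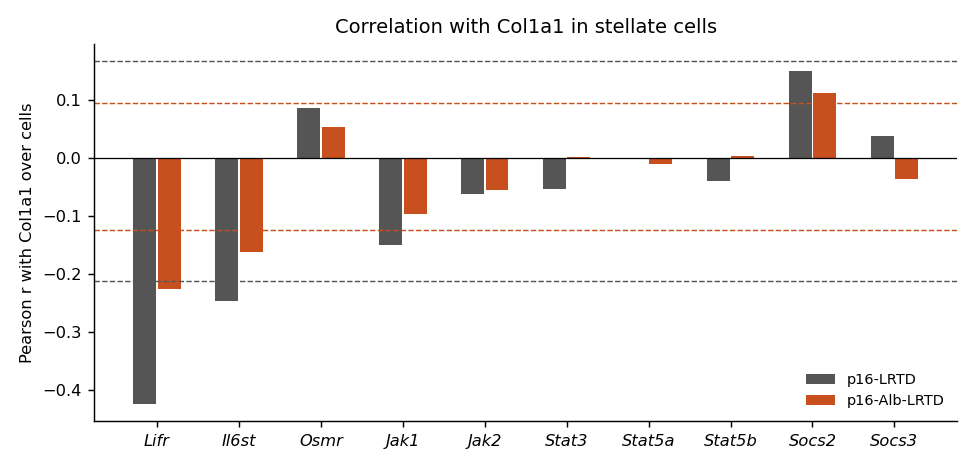
Pearson r with Col1a1 over stellate cells for each gene, on log values after thinning, in p16-LRTD (grey) and p16-Alb-LRTD (orange). Dashed lines in the same colors mark the limits of the lowest and highest 5% of 3347 genes, and the bars of Lifr and Il6st reach below the lower line of their library.

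The members were only loosely tied to each other. Of 45 pairs of members, 1 had r above 0.1 in both libraries, Lifr with Il6st, at 0.21 and 0.12. The genes most like Lifr over stellate cells, by the lower r of the 2 libraries, were Lsamp (0.47 and 0.36), Sod3 (0.40 and 0.31), Clca3a1 (0.39 and 0.31) and Ntm (0.35 and 0.30). Lsamp and Ntm encode cell adhesion proteins best known from neurons, and Sod3 encodes extracellular superoxide dismutase. The genes most like Socs2 were Col1a1, Col6a3, Col1a2, Alcam and Vim, with r of at most 0.15, which is weak. Those most like Socs3 were the immediate early genes Fos (0.45 and 0.49), Junb (0.40 and 0.44), Jun (0.38 and 0.38), Egr1 (0.33 and 0.39) and Zfp36 (0.31 and 0.31).

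Those genes are known to respond to tissue digestion and handling, and they differed between the libraries. All 13 genes of a dissociation stress list were higher in p16-Alb-LRTD stellate cells, 5 of them by 1.5-fold or more, among them Fos at 1347 and 2261 CPM, Egr1 at 540 and 882 CPM, Btg2 at 307 and 510 CPM and Hspa1a at 22.5 and 39.0 CPM. Their median sum per cell was 36 UMIs of 5000 in p16-LRTD and 56 in p16-Alb-LRTD. Genes known to respond to glucocorticoids were higher too, 7 of 9 by 1.5-fold or more, led by Zbtb16 at 59.5 and 647 CPM, Fkbp5 at 64.3 and 256 CPM and Per1 at 20.8 and 49.3 CPM. The same lists were higher in endothelial cells, with 10 of 13 and 6 of 9 past 1.5-fold, and in Kupffer cells, with 4 of 13 and 7 of 9. Whether handling raised the stress list was not tested, nor was the part of hormone exposure in the values of the members.

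Stellate cells of both libraries were also compared within tertiles of the stress sum. In the lowest tertile Socs3 was at 166 and 156 CPM, in the middle one at 378 and 412 CPM, and in the highest one at 531 and 671 CPM. The log2 ratio was -0.09 (-0.15 to -0.04), 0.12 (0.09 to 0.16) and 0.34 (0.31 to 0.37), under 1.5-fold in each. Socs3 thus varied more across the tertiles of 1 library than between the libraries, and with equal tertile shares its ratio was 0.21, no longer past 1.5-fold. Lifr kept its sign in the tertiles, at -0.16, -0.11 and -0.37, as did Osmr, at 0.34, 0.33 and 0.44, and Stat3, at 0.21, 0.26 and 0.24. With Col1a1 strata and stress tertiles made equal together, Lifr stood at -0.42, Osmr at 0.54, Stat3 at 0.23, Socs2 at 0.24 and Socs3 at 0.18. Jak1 turned from 0.19 to -0.014 there, and it was at 0.085 with equal tertile shares alone.

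In endothelial cells the stress sum had a median of 16 and 34 UMIs, and its tertiles held 196, 162 and 60 cells of p16-LRTD and 46, 66 and 171 of the other library. With equal tertile shares, the endothelial ratio of Lifr was 0.69, of Il6st 0.66, of Osmr 0.75, of Socs2 -1.10 and of Socs3 0.43. Lifr was at 719 and 1145 CPM in the lowest tertile, 684 and 1085 CPM in the middle one and 612 and 1027 CPM in the highest one. Stat3 was at -0.04 (-0.37 to 0.27), 0.30 (0.09 to 0.50) and 0.11 (-0.09 to 0.31) in the tertiles from lowest to highest. With equal shares Lifr, Il6st, Osmr and Socs2 were past 1.5-fold and Socs3 was not. Socs3 itself was at 65.5 and 51.0 CPM in the lowest tertile, a ratio of -0.36 (-1.0 to 0.23).

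**Figure D5:**
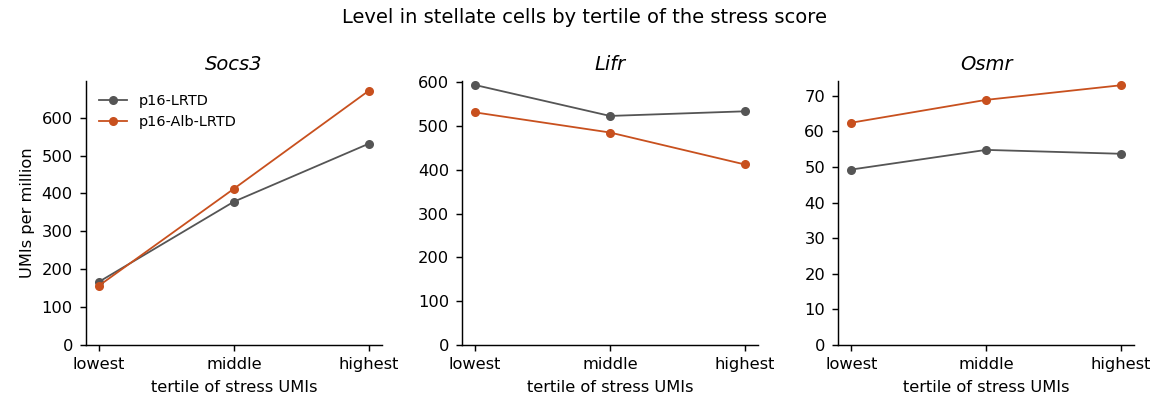
Level (CPM) of Socs3, Lifr and Osmr in stellate cells within pooled tertiles of the stress sum, in p16-LRTD (grey) and p16-Alb-LRTD (orange). Socs3 climbs steeply with the stress sum and the libraries come close in the lowest tertile, while Lifr of p16-LRTD lies above and Osmr of p16-LRTD below that of p16-Alb-LRTD in each.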

How the data were processed

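Raw UMI counts of each gene in each barcode were deposited by the authors, from 10x Genomics 3' v3.1 libraries processed with Cell Ranger 7.0.1 and mm10. Whether intronic reads were counted is not given in the sources used here, so levels were not compared between genes. Following the study's methods, cells were kept at up to 5% mitochondrial UMIs, 2000 to 7000 genes and at most 50000 UMIs. No doublet caller was run. Gates asked for 15 (stellate), 8 (endothelial) and 8 (Kupffer) UMIs per 10000, and cells in more than 1 gate were dropped. Counts were summed per class and library. Intervals are exact Poisson for levels, conditional binomial for ratios and Clopper-Pearson for shares. Genes past 1.5-fold with at least 5 CPM on average were counted. List genes were named from 20 CPM, at most 6 per list. Those under 20 CPM that complete a short count were chosen after their values were seen. So were Lyve1, Egfl7, Pecam1, Marco, Timd4, Myh11, Dpt, Wt1, Clec4g and Pdgfrb. Correlations used log(1 + UMIs per 10000) after thinning to 5000 UMIs. Coordinates are those of GENCODE vM21 (GRCm38), in which 30934 features had an entry. The members and lists were chosen with earlier results of these data known. Ratio intervals were tried on counts simulated with the Poisson error they assume, which leaves out spread between cells and mice. Python 3.11.15, SciPy 1.17.1, R 4.3.3, edgeR 4.0.16 and DESeq2 1.42.0 (the last 2 for scaling factors only) were used. Some genes that these rules would name are not reported here.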

Additional observations from a re-analysis of the deposited data

Results flagged for a closer look

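The direction of 3 members differed between cell classes, with counting intervals off 0 on both sides under all 3 scalings and a gap of at least 1.5-fold. Each of these differences is between 2 libraries and was not tested. For Lifr, the endothelial log2 ratio was above the stellate one by 0.91. For Socs2, the endothelial ratio was below the stellate one (difference -0.78), and the Kupffer ratio was above the endothelial one by 1.72. The stellate ratio of Socs2 itself was 0.06, which is near level. For Jak2, the Kupffer ratio was above the stellate one by 0.63. The Kupffer ratio of Jak2 itself, 0.42, was 1.0 among Kupffer cells with under 2 UMIs per 10000 of other gates.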

How the results depend on the processing

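No paired analysis was possible because there was 1 library per genotype, and no library could be left out. The spread between mice is unknown, and in Kupffer cells depth limits the values of Lifr, Osmr and Stat5a. The log2 ratio of Lifr stayed below 0 in stellate cells and above 0 in endothelial cells in every alternative run, and its correlation with Col1a1 stayed negative. Stellate Lifr, endothelial Lifr and stellate Socs3 were at -0.24, 0.71 and 0.72 with TMM scaling, -0.24, 0.72 and 0.72 with median-of-ratios scaling, -0.41, 0.56 and 0.70 as the mean of per-cell CPM, and -0.32, 0.75 and 0.65 in cells with 10000 to 30000 UMIs. With cells in more than 1 gate kept, Lifr was at -0.25 and 0.34, and Socs3 in Kupffer cells at -0.034. Endothelial Lifr was at 0.73 in cells with under 2 UMIs per 10000 of other gates. Stellate Lifr was at -0.26 without upper limits and -0.40 without cells holding portal fibroblast or mesothelial markers, and Lifr and Socs3 were at -0.33 and 0.65 without dividing cells and -0.50 and 0.64 at equal Col1a1 strata. Chosen after seeing the data were equal stress tertiles (stellate Lifr -0.21 and Socs3 0.21, endothelial Lifr 0.69), equal strata and tertiles together (-0.42 and 0.18), leaving out collagen-rich endothelial cells, and leaving out shared barcodes. The last 2 left these ratios within their counting intervals. The number of members past 1.5-fold in stellate cells was 2 at equal Col1a1 strata and 0 at equal stress tertiles, also with both equal. At the lower fold tried it was 2 in stellate and 8 in endothelial cells, and at a fold of 2 it was 0, 0 and 1 in stellate, endothelial and Kupffer cells. It was 2 in endothelial cells with cells in more than 1 gate kept. In Kupffer cells it was 1 with lower gates, with higher gates, without upper limits, as the mean of per-cell CPM and in cells with 10000 to 30000 UMIs. Across all alternatives the Kupffer count ran from 1 to 3, with a main value of 2. The r of Lifr with Col1a1 in p16-LRTD and p16-Alb-LRTD was -0.36 and -0.17 thinned to 3000 UMIs, -0.57 and -0.34 not thinned, and -0.35 and -0.16 in cells with a Col1a1 UMI. Where the alternative's own construction does not show it, the cause was not tested. For these 8 ratios, counts and correlations, 74 of 120 values under alternatives stayed and 46 moved. A ratio stayed if within its interval, and a count if within 1.5 times. A correlation stayed if within 2 over the root of the number of cells, a limit that treats cells as independent. For the other 45 results, which include Kupffer Lifr and the correlations of other members, 428 of 515 stayed, 86 moved and 1 reversed. Only a ratio past 1.5-fold or a larger correlation could count as reversed. Smaller values that changed sign, such as stellate Jak1 and endothelial Jak2, were counted as stayed or moved.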
